A study of Homo sapiens with 2 samples.

Results

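Aldo-keto reductases are enzymes that use NADPH to reduce aldehydes and ketones. Their substrates include sugars, steroids, prostaglandins and the reactive carbonyls left by oxidised lipids. Several human members carry antioxidant response elements and are well-known targets of NRF2, a factor that switches on genes against oxidants and that the adaptor KEAP1 keeps low in unstressed cells. Their levels are often high in carcinoma lines.

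Described here are 7 such genes, AKR1C1, AKR1C2, AKR1C3, AKR1B1, AKR1B10, AKR1A1 and AKR7A2, each found in the deposited table of 58698 genes by its symbol. They were chosen with these values known, because some of them differed between the 2 libraries, so their differences are given as a description, with no test. The 2 cultures were of MIA PaCa-2, an established human pancreatic cancer line. One carried a guide labelled sgTPST2 and has the genotype label TPST2 KD. The other carried a guide against GFP, a jellyfish protein gene that human cells lack, and has the genotype label WT. TPST2 encodes a Golgi enzyme that sulfates tyrosines of secreted and membrane proteins, and the study asked about its role in pancreatic cancer growth. The sources used here do not say whether each culture was a clone or a pool, nor how the guide lowers TPST2.

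There was 1 library per condition, so differences below have no replicate check. Levels are taken to be FPKM (fragments per kb of transcript, relative to library size), a unit the file does not name. Low values rose in steps that put 1 FPKM at about 47.6 fragments per kb of transcript in sgTPST2 and 42.0 in sgGFP. All intervals below are 95% Poisson intervals for 1 kb of transcript and cover counting error only. TPST2 itself was at 1.92 FPKM in sgTPST2, against 8.46 FPKM in sgGFP, a linear ratio of 0.226. Of 9 ductal and epithelial markers, 5 reached 1 FPKM in either library and 4 of those were at least 1.5-fold lower in sgTPST2. The summed level of the 9 was 143 FPKM in sgTPST2 and 1288 FPKM in sgGFP, nearly all of it keratins KRT8, KRT18 and KRT19. The defining epithelial marker EPCAM was listed at 0 in both libraries, while CDH1 was at 0.0524 FPKM in sgTPST2 and listed at 0 in sgGFP. MUC1, of the same list, went the other way from the keratins, at 1.71 FPKM in sgTPST2 and 0.828 FPKM in sgGFP. The mesenchymal marker VIM stood at 3118 FPKM in sgTPST2 and 2661 FPKM in sgGFP. Of the other mesenchymal markers, ZEB1 was at 13.9 FPKM in sgTPST2 and 13.2 FPKM in sgGFP. FN1 was at 1.04 FPKM in sgTPST2 and 1.16 FPKM in sgGFP, and CDH2 was listed at 0 in sgTPST2 and at 0.0133 FPKM in sgGFP. Fibroblast, leukocyte and endothelial markers summed to 16.7, 3.28 and 0.418 FPKM in sgTPST2, against 50.2, 6.19 and 12.7 FPKM in sgGFP, and acinar and islet markers were listed at 0. Hepatocyte markers, given because liver is rich in these enzymes, summed to 0.116 FPKM in sgTPST2 and 0.0724 FPKM in sgGFP. The part of these marker differences in any result below was not tested.

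The AKR1C genes lie side by side on chromosome 10 and are close copies of one another, which bears on every value given for them. Their coding sequences are each 969 bases long, stop codon not counted. The first 90 coding bases are shown for the 3 AKR1C members and for AKR1C4, the fourth coding copy, with capitals at the bases that differ from AKR1C1.
AKR1C1: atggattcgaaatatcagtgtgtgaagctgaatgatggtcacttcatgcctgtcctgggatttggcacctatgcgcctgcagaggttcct
AKR1C2: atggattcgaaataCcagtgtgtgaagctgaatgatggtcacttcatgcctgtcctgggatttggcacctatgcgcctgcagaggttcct
AKR1C3: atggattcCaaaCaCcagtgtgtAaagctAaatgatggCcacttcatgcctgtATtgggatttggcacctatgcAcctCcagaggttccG
AKR1C4: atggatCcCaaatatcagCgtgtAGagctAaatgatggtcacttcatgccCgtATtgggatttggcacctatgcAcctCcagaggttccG
These stretches come from GENCODE release 29 transcripts. In them AKR1C2 differed from AKR1C1 at 1 base, AKR1C3 at 11 and AKR1C4 at 12.

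Over the full coding length, AKR1C1 and AKR1C2 differed at 19 bases and were 98.0% identical, with a longest shared run of 186 bases. AKR1C3 differed from AKR1C1 at 83 bases (91.4% identity) and from AKR1C2 at 87 bases (91.0% identity), with longest shared runs of 112 and 171 bases. The members on other chromosomes were far from the cluster: AKR1B1 had 61.4% identity with AKR1C1, and AKR7A2 54.8%. AKR1B1 and AKR1B10, neighbours on chromosome 7, were 76.4% identical.

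Reads that fit more than 1 copy can be placed wrongly, and the sources used here do not give the read length. The coding sequence was therefore cut into every window of a fixed length, and windows found in no transcript of another gene were counted. At 50 bases, 45.7% of AKR1C1 windows and 42.9% of AKR1C2 windows belonged to that gene alone, against 77.0% for AKR1C3. At 100 bases the shares were 79.3% for AKR1C1, 73.6% for AKR1C2 and 90.2% for AKR1C3. AKR1A1 shared no window at any of the 4 lengths, and AKR1B1 shared none from 75 bases upwards. Over the whole principal transcript, untranslated parts included, the shares at 50 bases were 71.3% for AKR1C1, 47.8% for AKR1C2 and 87.9% for AKR1C3. AKR1C2 had the lowest share on both counts and AKR1C3 the highest of the 3.

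**Figure D1:**
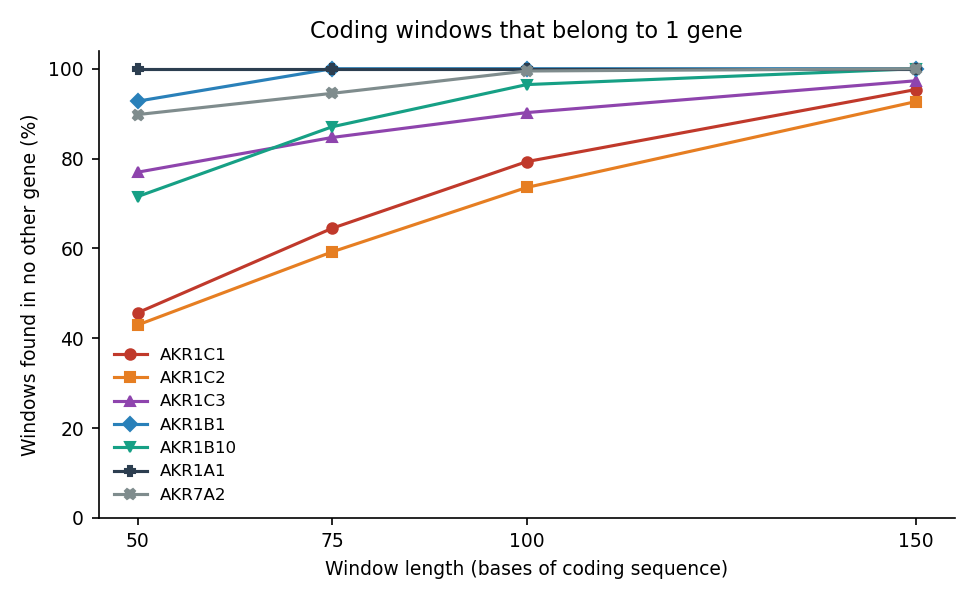
Share of coding windows (y axis, percent) found in no transcript of another gene, by window length (x axis, bases), for the 7 members in GENCODE release 29. AKR1C1 and AKR1C2 lie lowest, at 45.7% and 42.9% for 50 bases, and AKR1A1 stays at 100%.

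The copies also share sequence before their start. In the 250 bases before the RefSeq start (GRCh38.p14), AKR1C1 and AKR1C2 were identical at 245 bases, or 98.0%. AKR1C3 has 2 such starts, with 74.0% and 73.6% identity to AKR1C1. AKR1B1 also has 2, with 47.6% and 50.8% identity to AKR1C1, much like the 52.0% of AKR1A1. The parts of these windows that lie outside every annotated exon are shown, with capitals at TATATA, or at TATAAA on either strand. The AKR1C1 stretch is chr10:4963165-4963252 (plus strand), the AKR1C2 stretch chr10:5004024-5004107 (minus strand) and the AKR1C3 stretch chr10:5048531-5048780 (plus strand, first start). The AKR1B1 stretch is chr7:134459285-134459350 (minus strand), from 1 of its 2 windows. The other AKR1B1 window has 205 bases outside exons and is not shown.
AKR1C1: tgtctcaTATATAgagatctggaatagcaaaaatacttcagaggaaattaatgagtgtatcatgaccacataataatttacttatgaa
AKR1C2: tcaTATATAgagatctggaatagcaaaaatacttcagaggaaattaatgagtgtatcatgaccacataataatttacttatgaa
AKR1C3: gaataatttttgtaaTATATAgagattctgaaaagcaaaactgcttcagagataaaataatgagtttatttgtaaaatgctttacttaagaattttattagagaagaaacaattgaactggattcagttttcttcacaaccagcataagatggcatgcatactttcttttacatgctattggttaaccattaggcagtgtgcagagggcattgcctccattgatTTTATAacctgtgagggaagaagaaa
AKR1B1: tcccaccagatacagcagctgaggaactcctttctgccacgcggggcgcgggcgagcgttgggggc
All 84 bases of the AKR1C2 stretch match the end of the AKR1C1 stretch, and TATATA stands near the upstream end of the AKR1C1 and AKR1C2 windows and of the first AKR1C3 window, but not in the second.

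Motifs were searched on both strands of the full 250 bases. The core of the antioxidant response element, TGACNNNGC, was found in none of the windows of AKR1C1, AKR1C2, AKR1C3, AKR1B1 or AKR1A1. AKR7A2 held 3 matches in each of its overlapping windows. Over all 35116 promoter windows in the table, 10.9% held this motif. The AP-1 site, TGACTCA or TGAGTCA, was in no window of these 6 genes and in 4.20% of all windows. TATAAA was in 1 AKR1C3 window, 26 bases before the start but on the strand opposite to the gene, where the gene's own strand reads TTTATA. On either strand it was in 10.7% of all windows. TATATA was in 3.73% of all windows. These letters can lie outside 250 bases, and a match is no proof of a site.

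Of the AKR1C genes, AKR1C3 (ENSG00000196139.13, chromosome 10, 5035354 to 5107686, GRCh38) was set apart by a low level in the control. It encodes an enzyme that activates androgen and oestrogen precursors and also makes prostaglandin F. AKR1C3 stood at 40.3 FPKM (38.5 to 42.2) in sgTPST2 and at 1.52 FPKM (1.17 to 1.94) in sgGFP. The linear ratio was 26.5, with counting bounds of 20.7 and 34.6, and the log2 difference was 4.04 once 1 FPKM was added to both values. Among 8800 protein-coding genes whose higher value was at least 5 FPKM, this was the third highest difference. The value in sgTPST2 was close to that of AKR1A1 in the same library, whereas in sgGFP it rested on about 63.9 fragments per kb. In bulk RNA, fewer cells that express a gene and less RNA per cell cannot be told apart.

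AKR1C1 (ENSG00000187134.13, chromosome 10, 4963253 to 4983283) encodes an enzyme that inactivates progesterone and was the member with the highest level. It stood at 903 FPKM (895 to 912) in sgTPST2 and 336 FPKM (331 to 342) in sgGFP. The linear ratio was 2.68 (2.63 to 2.74) and the log2 difference 1.42. AKR1C2 (ENSG00000151632.17, chromosome 10, 4987400 to 5018031) encodes an enzyme that inactivates dihydrotestosterone. AKR1C2 was at 53.4 FPKM (51.4 to 55.6) in sgTPST2 and 19.4 FPKM (18.1 to 20.8) in sgGFP, a linear ratio of 2.76 (2.55 to 2.99) and a log2 difference of 1.42. The ratios of these near-identical genes could not be told apart within counting error, and the ratio of AKR1C3 lay far above both.

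Levels relative to each other make this plainer. AKR1C1 was 16.9 times AKR1C2 in sgTPST2 and 17.4 times AKR1C2 in sgGFP, an almost constant relation. Since AKR1C1 and AKR1C2 share many windows, their values may not be independent, which was not tested. AKR1C1 was 22.4 times AKR1C3 in sgTPST2 but 221 times AKR1C3 in sgGFP. AKR1C3 therefore did not keep a fixed share of the AKR1C1 level, and it made up 4.05% of the summed level of the 3 genes in sgTPST2 and 0.426% in sgGFP. Summed, the 3 genes stood at 997 FPKM in sgTPST2 and 357 FPKM in sgGFP. Misplaced reads can change this sum too, because FPKM divides by transcript length and the 3 lengths differ. By how much was not tested. The linear ratio of the sum was 2.79 and its log2 difference 1.48, set mainly by AKR1C1, which held 90.6% of it in sgTPST2 and 94.1% in sgGFP. FPKM also depends on which isoform the reads are assigned to, and the principal AKR1C1 transcript is 6705 bases long, against 1807 for AKR1C3. The antisense gene AL391427.1 overlaps AKR1C2 and was at 2.24 FPKM in sgTPST2 and 0.955 FPKM in sgGFP. The sources used here do not give the strand setting of the counting, so reads of the pair may be mixed.

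AKR1B1 gave a difference of like size from a gene elsewhere in the genome. It encodes aldose reductase, which turns glucose into sorbitol in the polyol pathway, and lies on chromosome 7 (ENSG00000085662.13, 134442350 to 134459284). AKR1B1 stood at 163 FPKM (160 to 167) in sgTPST2 and 55.3 FPKM (53.1 to 57.6) in sgGFP. Its linear ratio was 2.95 (2.82 to 3.09) and its log2 difference 1.54, the 24th highest among the 8800 genes, with AKR1C1 at 28 and AKR1C2 at 29. The counting interval of the ratio overlapped that of AKR1C2 and lay above that of AKR1C1. All of its windows of 75 bases were its own, so no AKR1C window matched it at that length.

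The remaining members were close in the 2 libraries or barely detected. AKR1A1, the aldehyde reductase that acts on glucuronate and many aldehydes (ENSG00000117448.13, chromosome 1, 45550543 to 45570049), was at 40.7 FPKM (38.9 to 42.6) in sgTPST2 and 43.9 FPKM (41.9 to 46.0) in sgGFP. AKR7A2, which reduces succinic semialdehyde and aflatoxin dialdehyde (ENSG00000053371.12, chromosome 1, 19303965 to 19312146), was at 52.0 FPKM (49.98 to 54.1) in sgTPST2 and 47.0 FPKM (44.9 to 49.1) in sgGFP. Their log2 differences were -0.11 for AKR1A1 and 0.14 for AKR7A2, both inside 1.5-fold. The small RNA gene RNU6-1099P lies within the AKR7A2 span on the same strand and was listed at 0 in sgTPST2 and at 98.0 FPKM in sgGFP. The number of fragments behind the RNU6-1099P value was not worked out, so nothing is read from it. AKR1B10, a retinal reductase of the intestine that is also high in some carcinomas (ENSG00000198074.9, chromosome 7, 134527592 to 134541408), was at 0.0464 FPKM in sgTPST2 and 0.0539 FPKM in sgGFP. For 1 kb of transcript this is about 2.21 and 2.26 fragments, and no difference was detectable at this depth.

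**Figure D2:**
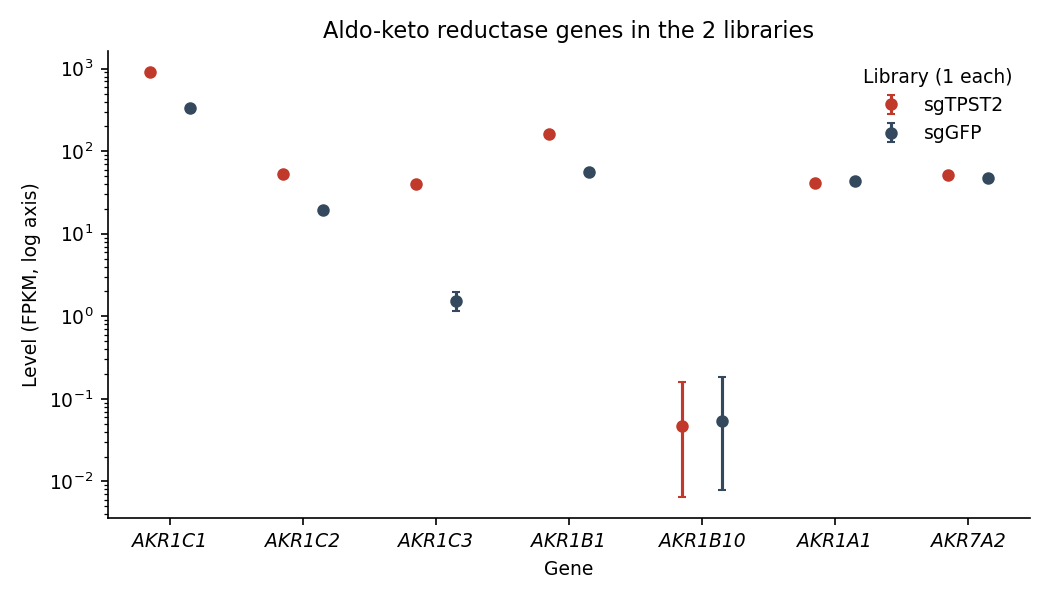
Level of each member (y axis, FPKM on a log axis) in the sgTPST2 library and the sgGFP library, 1 each. Points are the deposited values and bars their 95% Poisson intervals for 1 kb of transcript; AKR1C3 stands at 40.3 FPKM in sgTPST2 and 1.52 FPKM in sgGFP, while AKR1A1 and AKR7A2 nearly coincide.

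In all, 6 of the 7 members reached 1 FPKM in at least 1 library, and AKR1B10 did not. Of the 6, AKR1C1, AKR1C2, AKR1C3 and AKR1B1 were at least 1.5-fold higher in sgTPST2 on the log2(FPKM + 1) scale and 0 were lower. Of all 13420 genes at 1 FPKM or more, 4.41% were that much higher and 6.94% that much lower. At 2-fold the same 4 members were higher, beside 1.61% of all genes higher and 2.93% lower. The members were picked from this same contrast, so nothing is read from their count. With 1 library per condition, the authors' q-values that follow measure no spread between replicates. In the authors' deposited table AKR1C3 and AKR1B1 have q = 0.01255, and AKR1C2 has q = 0.0557 and AKR1C1 q = 0.0631. That table calls 0.0915% of its 18574 tested genes higher and 0.425% lower at q of 0.05 or less.

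Other genes of the superfamily were mostly low. Of 12 listed, AKR1E2, KCNAB2 and KCNAB3 reached 1 FPKM. AKR1E2, a reductase of anhydrofructose that sits beside the AKR1C genes, was at 15.7 FPKM (14.6 to 16.9) in sgTPST2 and 10.5 FPKM (9.53 to 11.5) in sgGFP, a log2 difference of 0.54 and just inside 1.5-fold. KCNAB2, a potassium channel subunit with the aldo-keto reductase fold, stood at 4.35 FPKM in sgTPST2 and 2.47 FPKM in sgGFP. Its log2 difference of 0.63 made it the 1 gene of the list past 1.5-fold, and with a pseudocount of 5 FPKM it was not. KCNAB3 was at 1.11 FPKM in sgTPST2 and 0.93 FPKM in sgGFP. KCNAB1, AKR7A3 and AKR7L stayed under 1 FPKM: KCNAB1 was at 0.338 FPKM in sgTPST2 and 0.323 in sgGFP, AKR7A3 at 0.273 in sgTPST2 and 0.280 in sgGFP, and AKR7L at 0.581 in sgTPST2 and 0.399 in sgGFP.

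The remaining AKR1C copies gave almost no signal in either library. AKR1C4, a liver enzyme of bile acid synthesis, was listed at 0 in both, as were AKR1C6P, AKR1D1 and AKR1B15. AKR1C8P was at 0.0703 FPKM in sgTPST2 and 0.0119 FPKM in sgGFP, and AKR1C7P at 0.101 FPKM in sgTPST2 and 0.0577 FPKM in sgGFP. Of 15 AKR pseudogenes in the annotation, 6 were above 0 and the highest value was 0.581 FPKM. Placement of reads among AKR1C1, AKR1C2 and AKR1C3 was not tested.

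No protein-coding neighbour of the AKR1C genes or AKR1B1 at 1 FPKM or more was as much higher in sgTPST2 as those members. Within 2 Mb of AKR1C1, AKR1C2 and AKR1C3 there were 13 other protein-coding genes at 1 FPKM or more, of which 0 were 1.5-fold higher and 1 was lower. Over all genes 4.41% were higher and 6.94% lower, so these counts are near that share. The antisense gene AL391427.1, which overlaps AKR1C2 and is not protein-coding, had a log2 difference of 0.73 and is not counted here. The log2 differences of the 13 protein-coding genes had a median of 0.17 and ran up to 0.54, the value of AKR1E2. The 1 lower gene was NET1, a guanine nucleotide exchange factor for RhoA, at 55.9 FPKM in sgTPST2 and 112 FPKM in sgGFP. Upstream, KLF6 was at 47.8 FPKM in sgTPST2 and 37.6 in sgGFP, PITRM1 at 59.2 in sgTPST2 and 51.9 in sgGFP, and PFKP at 93.5 in sgTPST2 and 88.7 in sgGFP. On the other side, ASB13 stood at 9.04 FPKM in sgTPST2 and 12.7 in sgGFP, and GDI2 at 319 in sgTPST2 and 264 in sgGFP. The other 6 genes there, FAM208B, ANKRD16, FBH1, IL15RA, RBM17 and PFKFB3, had log2 differences from -0.21 to 0.26. Chromosome 10 as a whole was slightly higher, with a median log2 difference of 0.18 over 437 protein-coding genes.

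Around AKR1B1, 13 protein-coding genes within 2 Mb had a median log2 difference of -0.06, and 0 passed 1.5-fold in either direction. The highest was TMEM140 at 0.51 and the lowest CNOT4 at -0.27, both named after their values were seen. The median of 504 genes of chromosome 7 was -0.02. On chromosome 1, 2 of 49 genes around AKR1A1 were 1.5-fold higher and 5 lower, and around AKR7A2, 1 of 21 was higher and 2 lower. Over all genes, 4.41% were higher and 6.94% lower.

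**Figure D3:**
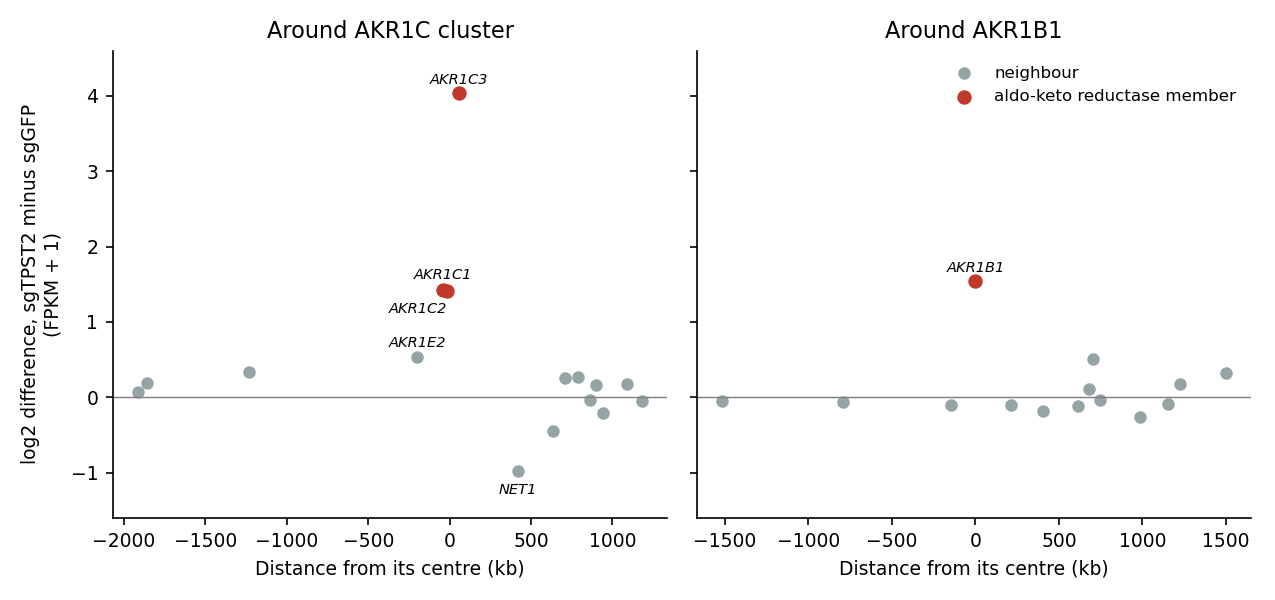
Difference of each protein-coding gene at 1 FPKM or more (y axis, log2 of FPKM + 1, sgTPST2 minus sgGFP) by its distance (x axis, kb) from the AKR1C genes on the left and from AKR1B1 on the right. AKR1C3 at 4.04, AKR1C1 and AKR1C2 at 1.42 and AKR1B1 at 1.54 stand above all neighbours shown.

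Other targets of NRF2 were higher in part, in a list set with earlier results of these data known. Of 33 listed genes, 31 reached 1 FPKM; 10 of these were at least 1.5-fold higher in sgTPST2 and 0 lower, with a median log2 difference of 0.45, against 4.41% higher and a median of 0.00 over all genes. Among genes at 5 FPKM or more, SLC7A11, PIR and PGD were among those with the largest differences. SLC7A11, the cystine transporter that feeds glutathione synthesis, stood at 25.3 FPKM in sgTPST2 and 6.79 FPKM in sgGFP. PGD, whose enzyme makes NADPH, the cofactor of aldo-keto reductases, was at 191 FPKM in sgTPST2 and 95.5 FPKM in sgGFP. PIR, an iron-binding nuclear protein, was at 39.6 FPKM in sgTPST2 and 18.6 FPKM in sgGFP.

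Also among the 10, and named after their values were seen, were NMRAL2P, BLVRB, TRIM16L, NQO1, TXN and HMOX1. NQO1, a quinone reductase and a common readout of NRF2, was at 2030 FPKM in sgTPST2 and 1268 FPKM in sgGFP. Members of the same list did not all rise. The glutathione synthesis gene GCLM was at 152 FPKM in sgTPST2 and 180 FPKM in sgGFP. UGDH, with the lowest difference of the list, was at 12.5 FPKM in sgTPST2 and 18.2 FPKM in sgGFP. Both were lower by less than 1.5-fold and were named after their values were seen. At a threshold of 2-fold, 4 of the 31 were higher.

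The regulators of NRF2 had a median log2 difference of -0.05, with 0 of 10 genes past 1.5-fold in either direction. Over all genes 4.41% were that much higher and 6.94% that much lower, so nothing is read from a count of 0 in so short a list. CUL3, the ubiquitin ligase scaffold that works with KEAP1, was at 41.8 FPKM in sgTPST2 and 58.4 FPKM in sgGFP. BACH1, a repressor of NRF2 targets, was at 13.5 FPKM in sgTPST2 and 18.8 FPKM in sgGFP. SQSTM1, an autophagy receptor that binds KEAP1, was at 108 FPKM in sgTPST2 and 77.5 FPKM in sgGFP, and the related factor NFE2L1 at 37.4 in sgTPST2 and 40.7 in sgGFP. NFE2L2, the gene of NRF2, and KEAP1 are named after their values were seen. NFE2L2 stood at 32.3 FPKM in sgTPST2 and 29.9 FPKM in sgGFP, and KEAP1 at 29.2 FPKM in sgTPST2 and 29.7 FPKM in sgGFP. RNA levels do not measure NRF2 protein, which is controlled mainly by degradation.

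Enzymes that share substrates with the members were examined in the same way. Of 9 steroid and prostaglandin genes past the filter, 0 were 1.5-fold apart, and the median log2 difference was 0.00. Over all genes 4.41% were that much higher and 6.94% that much lower, so nothing is read from this count. PTGR1, which inactivates prostaglandins and leukotrienes, was at 41.0 FPKM in sgTPST2 and 28.7 FPKM in sgGFP. The prostaglandin synthase gene PTGES2 was at 49.7 FPKM in sgTPST2 and 69.7 FPKM in sgGFP, and SRD5A3, of the steroid reductase family, at 17.6 in sgTPST2 and 24.3 in sgGFP. The glucocorticoid receptor gene NR3C1 stood at 31.3 FPKM in sgTPST2 and 26.4 FPKM in sgGFP. The oestrogen receptor gene ESR1, the progesterone receptor gene PGR and the prostaglandin synthase gene PTGS2 were listed at 0 in both libraries and were named after their values were seen.

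Of 8 alcohol dehydrogenase, polyol and glyoxal pathway genes past the filter, 0 were higher and 1 was lower, beside 4.41% higher and 6.94% lower over all genes. PTGR1 is counted in this list and in the steroid and prostaglandin list. The 1 lower gene was the fructose kinase gene KHK, named after its values were seen, at 0.707 FPKM in sgTPST2 and 1.63 FPKM in sgGFP. SORD, which takes the sorbitol made by AKR1B1 to fructose and was also named after its values were seen, was at 20.4 FPKM in sgTPST2 and 21.9 FPKM in sgGFP. Of the glyoxalases, GLO1 was at 306 FPKM in sgTPST2 and 361 FPKM in sgGFP, and HAGH at 14.0 in sgTPST2 and 16.7 in sgGFP. ESD, an esterase that acts in formaldehyde removal, was at 132 FPKM in sgTPST2 and 111 FPKM in sgGFP.

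**Figure D4:**
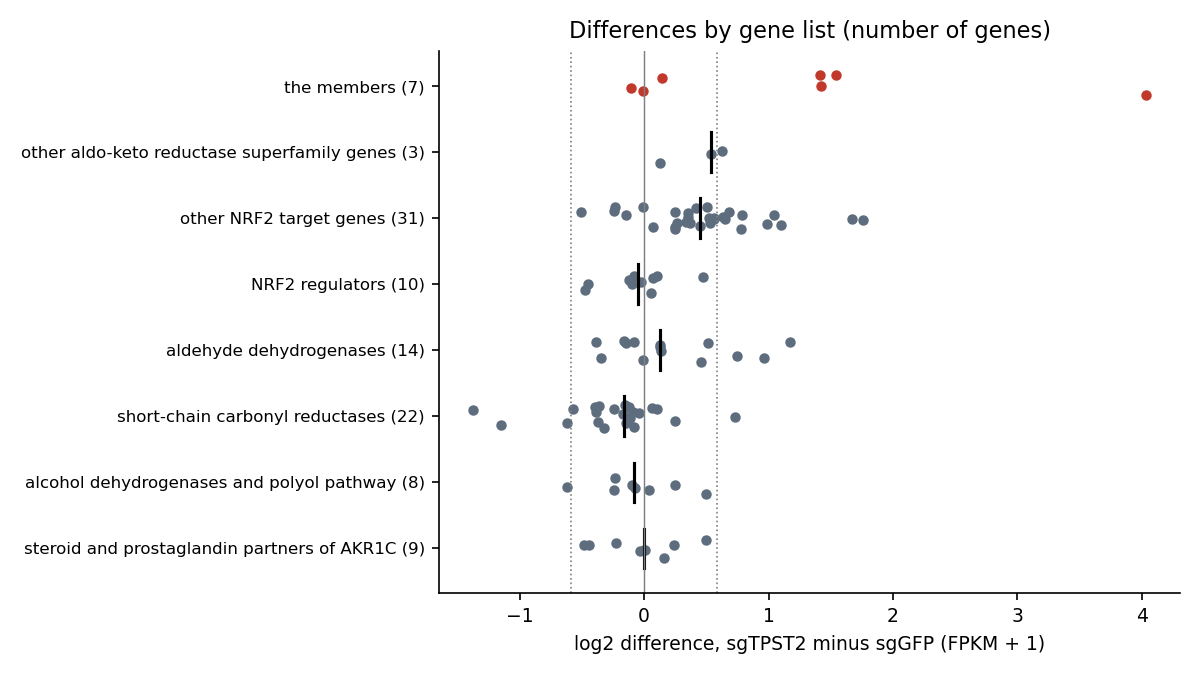
Difference of each gene at 1 FPKM or more (x axis, log2 of FPKM + 1, sgTPST2 minus sgGFP) by list, with all 7 members in the top row. Black bars are list medians, 0.45 for the other NRF2 targets and -0.05 for NRF2 regulators, and dotted lines mark 1.5-fold.

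The genes next to AKR1C3 and AKR1C1 in the order of differences were taken as those most like them, over 2 libraries and hence by 1 number each. Above AKR1C3 were PLCB1 at 4.82 and SNAI2 at 4.23, and below it RHOBTB3 at 3.85 and HLX at 2.95, all log2 differences. Next to AKR1C1 were GBP2 at 1.51 and TPD52L1 at 1.43 above, and AKR1C2 at 1.42 and CD274 at 1.38 below. With 1 library per condition, such closeness shows only that these values are near each other.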

How the data were processed

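RNA of 2 MIA PaCa-2 cultures was purified on columns and sequenced from stranded total RNA libraries, per the labels' protocols. STAR and Cuffdiff were run with the build hg38, per the submitters' processing notes. The deposited table gives 1 value per gene and culture, read as FPKM, an assumption since the file headers name no unit. The authors' p-value, q-value, test score and log2 fold change were deposited beside them, and that log2 value equals log2((sgTPST2 + 1)/(sgGFP + 1)) to within 2.11e-15. By their status column, 18574 genes were tested by the authors.

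All 58698 gene identifiers matched GENCODE release 29, which supplied positions and transcripts. Differences are on the log2(FPKM + 1) scale for genes whose higher value was at least 1 FPKM, 13420 in all, and 1.5-fold is counted on that scale. Duplicate symbols were resolved to the higher mean. Depth was read from low values of long single-transcript genes. After a step was fitted to them, 92.1% in sgTPST2 and 90.9% in sgGFP were whole fragment numbers, with a tolerance of 0.1. The fit was tested on simulated data. Windows were matched on the same strand. Promoters came from RefSeq (GRCh38.p14), where 6 of 7 members matched, AKR1B10 not.

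The members and gene lists were chosen with earlier results of these data known. A fixed rule for naming genes took all members, other superfamily genes above 0 and neighbours within 2 Mb of the AKR1C genes. It also took up to 4 genes per list with the largest absolute difference at 5 FPKM or more, and genes next in order to AKR1C1 and AKR1C3. Other genes fall outside this rule: superfamily genes at 0, markers, genes that overlap a member, and those said to be named after their values were seen. Tools were Python 3.11.15, pandas 2.3.3, SciPy 1.17.1 and Biopython 1.88. Some genes that the rule selects are not reported here. No test was made, as each condition is 1 library. Alternatives covered the pseudocount, 3 scalings, the filter, the threshold and the status.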

Additional observations from a re-analysis of the deposited data

How the results depend on the processing

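No paired analysis was possible because there is 1 library per condition, so none could be left out either. The differences of the 7 members, the AKR1C sum and the counts over all genes were recomputed in 61 combinations with a setting; 0 changed direction and 12 moved beyond their bounds (for a difference, the extremes that both libraries' counting intervals allow; for a count, 1.5 times). With a pseudocount of 0.1 FPKM the difference of AKR1C3 was 4.64 and 928 genes were 1.5-fold higher. With 5 FPKM it was 2.80, that of AKR1C2 was 1.26, and 228 genes were higher and 405 lower, against 592 and 931 as reported. Taking the 3 AKR1C genes together gives 1.48 in place of the value of AKR1C1 or AKR1C3. A filter of 5 FPKM left 326 genes higher and 524 lower, and a 2-fold threshold 216 and 393, both by construction. Scaling to the same upper quartile or the same sum moved the median gene to 0.03 and 0.01. With the same upper quartile AKR1C1 was at 1.46, within those extremes but above the narrower counting interval of its ratio. Of 189 list values, 176 stayed within the bounds, 12 moved to a lower value and 1 to a higher one.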

Other observations

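Aldehyde dehydrogenases oxidise the aldehydes that aldo-keto reductases reduce. In sgTPST2, 3 of the 14 such genes past the 1 FPKM filter were higher by 1.5-fold or more and 0 lower, with a median log2 difference of 0.13, beside 4.41% higher and 6.94% lower over all genes. ALDH3B1 stood at 5.56 FPKM in sgTPST2 and 1.92 FPKM in sgGFP, and ALDH7A1, an enzyme of lysine breakdown, at 153 FPKM in sgTPST2 and 90.6 FPKM in sgGFP. ALDH1A2, a retinoic acid synthesis gene named after its values were seen, was at 2.29 FPKM in sgTPST2 and 0.683 FPKM in sgGFP. Its abundant relative ALDH1A1 was at 1280 FPKM in sgTPST2 and 894 FPKM in sgGFP, inside 1.5-fold, and ALDH18A1, of proline synthesis, was at 39.2 in sgTPST2 and 51.5 in sgGFP.

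Short-chain carbonyl reductases, which handle many of the same steroids and carbonyls with an unrelated fold, had 22 genes past the filter. Of these 1 was higher and 3 were lower, with a median of -0.16, beside 4.41% higher and 6.94% lower over all genes. The lower ones were HSD17B7, DHRS2 and HSD17B8. HSD17B7, which also acts in cholesterol synthesis, was at 11.95 FPKM in sgTPST2 and 32.6 FPKM in sgGFP. DHRS2 was at 0.655 FPKM in sgTPST2 and 2.68 FPKM in sgGFP, and HSD17B8 at 0.568 in sgTPST2 and 1.42 in sgGFP, both named after their values were seen. Inside 1.5-fold, HSD17B12 stood at 44.8 FPKM in sgTPST2 and 66.9 FPKM in sgGFP, and the retinal reductase gene RDH11 at 37.6 in sgTPST2 and 49.5 in sgGFP. DHRS3, another retinal reductase, was the 1 higher gene, at 32.6 FPKM in sgTPST2 and 19.3 FPKM in sgGFP. With 1 library per condition, none of these values has a replicate check.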
